A study of Drosophila melanogaster with 3 samples.

Results

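The X chromosome of Drosophila melanogaster carried 760 of the 3845 optimal peaks of a chromatin immunoprecipitation (ChIP-seq) experiment on the transcription factor Jumeau (jumu). They are the entries of the optimal peak list in genome build dm6 whose chromosome is X, and all 760 are used below. The other 3085 peaks, on the autosomal arms 2L, 2R, 3L, 3R and 4, serve for comparison. The embryos were whole, of mixed sex and 0 to 24 h old, from the strain jumu-MiMIC-GFP. In that strain an eGFP exon sits in an intron of jumu, so the jumu gene itself makes a GFP fusion protein, which was precipitated with an antibody to GFP after sonication to 200 to 800 bp. There was 1 group of 3 biological replicates, all from this 1 line, and no control sample was analysed here, so antibody background and open chromatin were not separated from binding. Embryos of all ages, both sexes and all tissues were pooled, so more cells with a bound site and more binding per cell cannot be told apart.

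Jumeau belongs to the forkhead family, whose members bind DNA through a winged helix domain, and fly genetics ties it to heart, muscle and nervous system development and to position-effect variegation. The X is the chromosome on which fly males have a single copy. Males compensate with the MSL complex and its roX RNAs, which raise transcription along that X, and females keep the complex off through Sex-lethal. Many X genes are long, with introns that hold enhancers and smaller nested genes.

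Reference sequence around 10 of the X summits is printed here because the results turn on these sites: the strongest peaks, the strongest peak of several genes with many summits, and the strongest X peaks with the longer forkhead word or with the DNA replication-related element (DRE). Each line gives the nearest annotated gene, the position in dm6 and 61 bases of the plus strand from RefSeq with the summit as the central base, and capitals mark matches to the consensus words described further on, except runs of A and the word AATAGT, which are not marked.
Ugalt (chrX:2703866-2703926): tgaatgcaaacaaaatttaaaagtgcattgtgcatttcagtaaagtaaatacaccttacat
ph-p (chrX:2137303-2137363): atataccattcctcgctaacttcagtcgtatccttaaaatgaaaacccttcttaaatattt
CG32772 (chrX:4910347-4910407): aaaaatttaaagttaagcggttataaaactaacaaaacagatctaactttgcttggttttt
lncRNA:CR44619 (chrX:12752337-12752397): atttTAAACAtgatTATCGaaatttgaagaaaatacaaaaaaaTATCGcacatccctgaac
Raf (chrX:2297698-2297758): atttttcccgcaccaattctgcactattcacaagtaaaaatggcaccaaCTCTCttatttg
CBP, inside CG1677 (chrX:7337037-7337097): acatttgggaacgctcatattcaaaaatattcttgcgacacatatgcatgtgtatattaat
CHES-1-like (chrX:7703141-7703201): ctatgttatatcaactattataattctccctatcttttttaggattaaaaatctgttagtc
CR46447, inside Hr4 (chrX:1951886-1951946): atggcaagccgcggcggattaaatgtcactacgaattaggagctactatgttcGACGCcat
Hmt4-20 (chrX:655112-655172): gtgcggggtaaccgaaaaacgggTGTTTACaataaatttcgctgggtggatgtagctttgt
snf (chrX:5309192-5309252): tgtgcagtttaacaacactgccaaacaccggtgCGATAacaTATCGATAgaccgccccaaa
The windows of Ugalt, ph-p and CG32772, the strongest X peaks, held none of the words so marked. Hmt4-20, which encodes a histone H4 lysine methyltransferase, held the longer forkhead word on the opposite strand. The window upstream of snf, a gene for a spliceosomal protein, held the DRE.

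The first comparison set the number of X peaks against the length of the chromosome. The X carried more peaks for its length than any autosomal arm when every summit was counted. It did not when each gene was counted once, with length still the yardstick. Its 760 peaks were 19.8% of the list (95% Wilson interval 18.5 to 21.1%), while X makes up 17.6% of the length of the 6 arms. That is 83.9 peaks more than the 676 expected by length, a ratio of 1.12 (1.05 to 1.20). The intervals here treat peaks as independent and cover counting error only, and the sequencing depth behind the peaks is unknown. Males carry a single X, so X DNA was scarcer than autosomal DNA in these mixed-sex embryos. No correction was made for this here, and its effect was not tested. X held 32.3 peaks per Mb. The ratio was 1.04 for 2L, 1.01 for 3R, 0.953 for 2R, 0.919 for 3L and 0.362 for the small chromosome 4, which held 14 peaks. Length also counts stretches without peaks, and the arms differed in these. Of the full 1 Mb windows, 5 on 2R, 4 on 3L and 4 on 3R had no peak, and 0 on X and 2L. The median per window was 32 peaks on X, 2L and 2R alike, 30 on 3R and 27 on 3L.

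The replicates were compared through the strongest 3845 peaks of each. Replicates 1, 2 and 3 had X ratios of 1.11, 1.09 and 1.04, with a mean of 1.08 ± 0.0341 (SD, n = 3). All 3 values lay above 1, and replicate 3 was the lowest. A two-sided exact sign-flip permutation test over the 3 replicates gave p = 0.25, the smallest p that 3 replicates allow. Arm 2L also lay above 1 in each replicate (1.05 ± 0.0163, SD, n = 3), and in replicate 3 it was above X, at 1.06. On average the X ratio lay above 1 in the strongest 500 to 3845 peaks of the replicates and below 1 in longer lists. In each replicate's strongest 500 peaks the mean was 1.08 ± 0.0538 (SD, n = 3). The interval of each replicate there included 1 (0.951 to 1.35, 0.878 to 1.27 and 0.857 to 1.24). In the optimal list the ratio was 1.07 (0.944 to 1.22) for the strongest 1000 peaks. It was 1.10 (1.004 to 1.20) for the strongest 1922 and 1.12 for all 3845. These counts thus do not place the excess in the strongest peaks. Among the strongest 10000 of each replicate the mean was 0.959 ± 0.0802, and over each full list of 30000 peaks it was 0.925 ± 0.0637. Over the relaxed pooled list of 29812 peaks the X ratio was 0.936.

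**Figure D1:**
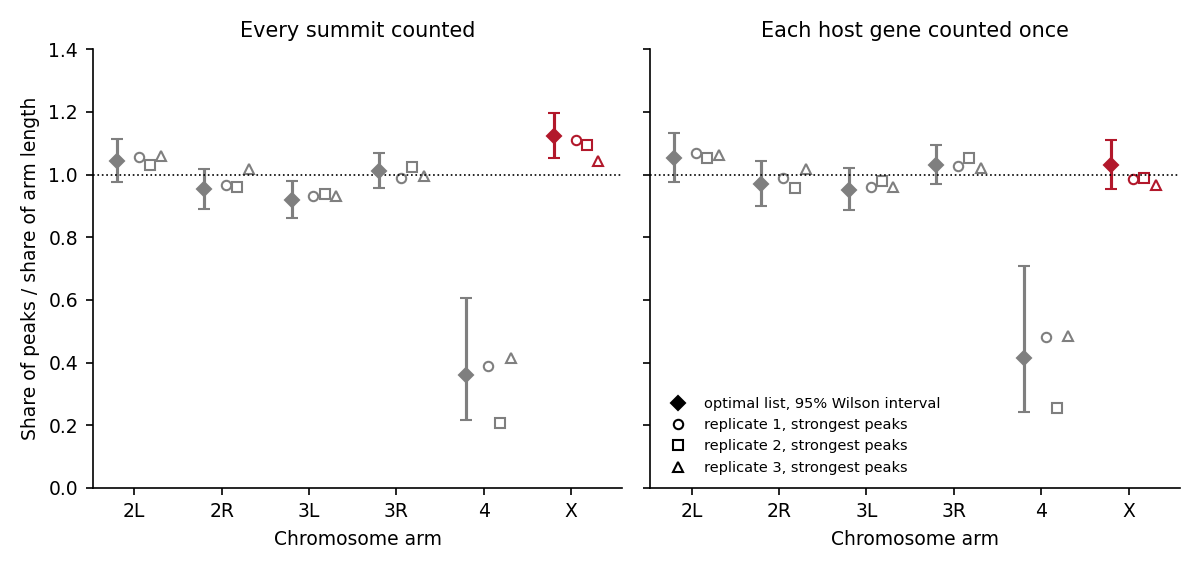
Share of peaks divided by share of arm length for each chromosome arm, with every summit counted (left) and with each protein-coding gene body counted once (right). Diamonds are the optimal list with 95% Wilson intervals, open symbols the strongest 3845 peaks of each replicate; X stands at 1.12 on the left and at 1.03 on the right, level with 3R.

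How far clusters in single genes made up the excess was asked by counting each protein-coding gene body once, however many summits it held, and each summit outside such bodies singly. Most of the X excess went. The X then held 564 of 3114 units, a ratio of 1.03 (0.955 to 1.11), and the excess fell from 83.9 to 16.4. On this count 2L stood at 1.05 and 3R at 1.03, so X no longer led. In the strongest peaks of the replicates the X ratio was 0.987, 0.989 and 0.968, below 1 in each (0.981 ± 0.0119, SD, n = 3, two-sided exact sign-flip permutation p = 0.25). The count merged 196 X summits, or 25.8%, against 16.2 to 18.3% on 2L, 2R, 3L and 3R. These units were still set against length, not against the number of genes. By the share of protein-coding genes with a summit in the body X did lead, at 14.2% against 9.94 to 10.8% on those arms.

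Other ways of counting took away less. Counting each gene of the nearest start site once gave 1.04 (0.961 to 1.12). Joining summits by distance alone gave 1.11 with gaps up to 1 kb, 1.09 at 2 kb, 1.07 at 5 kb and 1.07 at 10 kb. Leaving out every gene with 5 or more summits on any arm, with its length, left 1.08 (1.01 to 1.16) and an excess of 52.1 peaks. Leaving out the 5 X genes with the most summits, 55 summits in all, left 1.06 with the length of X kept and 1.08 with their length removed. Of the 196 X summits that the gene count merged, 79 were in genes with 5 or more, 66 in genes with 3 or 4 and 51 in genes with 2. The X merging was thus spread over genes of all these sizes, not over the largest clusters alone. On the autosomes 131 merged summits were in genes with 5 or more, 233 in genes with 3 or 4 and 171 in genes with 2. Genes with 5 or more held 11.8% of X summits and 5.15% of autosomal ones, and there X differed most. With 3 or 4 the shares were 12.6% and 10.8%, and with 2 they were 13.4% and 11.1%.

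**Figure D2:**
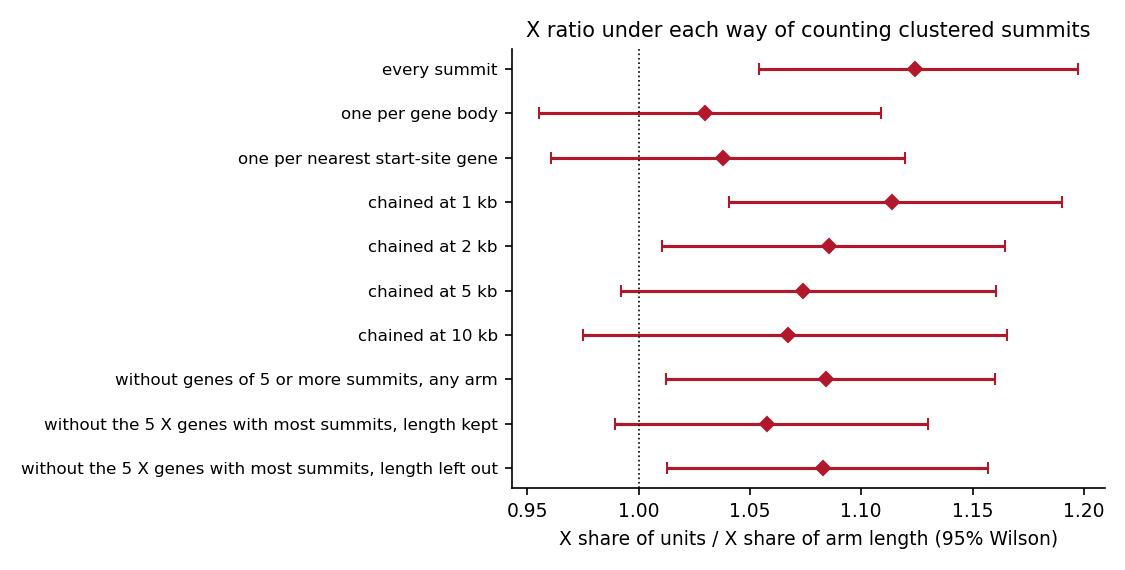
X share of the counted units divided by the X share of arm length (points, with 95% Wilson intervals) under each way of counting clustered summits. The ratio runs from 1.12 with every summit to 1.03 with each gene body counted once, and the interval includes 1 in 5 of the 10 rows.

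X summits lay inside genes more often than autosomal summits. Outside protein-coding gene bodies were 276 X summits (36.3%) against 46.7% on the autosomes. Gene bodies covered 70.7% of X, 70.9% of 3R and 62.7 to 65.7% of 2L, 2R and 3L. X genes were longer, with a mean of 8206 bp against 6656 bp. Genes with a summit in the body were 312 of 2196 on X (14.2%) and 10.2% of autosomal genes. Genes with 5 or more summits were 11 on X (0.501% of its protein-coding genes) and 29 on the autosomes (0.247%), against 0.287% of genes over all arms. The 11 X genes held 90 summits, 11.8% of those on X, while on 2L, 2R, 3L and 3R such genes held 4.39 to 5.68%. The median signal of these 90 summits was 245, above the 172 of X summits outside genes. Signal is the authors' own value for each peak and is used only to describe and rank peaks within the list.

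The 11 genes differed in how their summits were spread. CG1677 held the most, 15 in 124.7 kb, where the mean density of X predicts 4.03. Its body holds 13 nested protein-coding genes, and only 1 of the 15 summits had the CG1677 start site as its nearest. The others lay nearest to unc-119, brk, Atg5, Dok, CG42780 and CBP, of which brk encodes a repressor of Dpp target genes and CBP a sarcoplasmic calcium-binding protein. The strongest, 285 bp upstream of CBP, had a signal of 803. Its relative signal, that is the signal divided by the median over the matched optimal peaks of the same replicate, was 4.24 ± 0.267 (SD, n = 3).

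Raf, the kinase that relays Ras signals to the MAP kinase cascade, held 11 summits in 48.4 kb, where 1.56 were predicted. Of these, 7 formed the longest chain on X, with successive gaps of at most 2 kb over 7840 bp from the first part of the gene. Their signals were 648, 326, 1288, 256, 431, 373 and 513 in order along the gene, each above the X median of 178. In the replicates the second of them was less steady, with relative signals of 1.32, 0.499 and 0.354, so it lay below the median in replicates 2 and 3, while the other 6 lay above it in all 3. The peak of 1288 had relative signals of 7.02, 6.83 and 6.70 in replicates 1, 2 and 3, a narrow range. The next summit downstream, at 164, was below the X median.

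CHES-1-like, a forkhead gene closely related to jumu, held 10 summits in 27 kb, 12.9 times the density of the whole genome. The signals ran from 129 to 563, 9 of the 10 were matched in all 3 replicates, and the body holds no other protein-coding gene. The strongest was intronic (2.98 ± 0.339, SD, n = 3) and the next, at 451, lay 161 bp from a start site with relative signals of 2.21, 2.33 and 2.82. The 10 summits covered 17151 bp with a median gap of 1434 bp.

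kirre, which encodes the receptor of founder cells in myoblast fusion, also held 11 summits, but its body is 394 kb long and predicts 12.7 at the density of X. Its count was thus no higher than its length predicts. The summits included promoter peaks of the nested syntaxin gene Syx4 with signals of 344 and 326. The strongest, at 580, lay in a kirre intron 2314 bp from a start site.

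Hr4, a nuclear receptor of the ecdysone response, held 8 summits, all intronic, with the strongest at 658 and 625. Mnt, a repressor that pairs with Max and opposes Myc, held 7, with signals from 134 to 339. CG14434 held 6 in only 15.3 kb, 13.7 times the genome density. Tlk, the Tousled-like kinase of chromatin assembly, held 6, led by an intronic peak of 1411. dnc, the cAMP phosphodiesterase gene known from learning mutants, held 6 in 167 kb, close to the 5.40 predicted at the density of X, and its strongest, at 846, lay 295 bp from a start site. NFAT, a calcium-regulated transcription factor in vertebrates, held 5, led by 999.5 and 595. ph-p, a Polycomb group gene, held 5 in 12.2 kb, at 14.3 times the genome density the highest of the 11. ph-p and its neighbour ph-d are close copies, and how reads that match both were treated is not given in the sources used here.

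The spacing of summits along X was compared next. X summits had a near neighbour somewhat more often. X also held more peaks per Mb, 32.3 against 26.4 to 29.9 on 2L, 2R, 3L and 3R. The spacing was not adjusted for this density, and its part in the spacing was not tested. The next summit lay within 2 kb for 18.7% of X summits and 15.1% of autosomal summits, a difference of 3.61 percentage points (95% Newcombe interval 0.688 to 6.79). In the strongest peaks of the replicates the difference was 1.93, 3.65 and 2.04, higher on X in 3 of 3 (2.54 ± 0.966, SD, n = 3, two-sided exact sign-flip permutation p = 0.25). At 1 kb the difference was 1.05 (-1.13 to 3.55) and was negative in replicate 3. Peaks whose interval overlapped the next were no more common, 3.56% on X against 3.65 to 4.69% on 2L, 2R, 3L and 3R. The median gap between X summits was 10817 bp, and 12109 to 12680 bp on those arms.

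Chains of 3 or more summits with gaps up to 2 kb held 84 X summits, 11.1%, against 3.97 to 7.10% on the large autosomal arms. X had 7 chains of 4 or more, and each of those arms had 2 to 4. After Raf came chains of 5 in ph-p and in CHES-1-like. In ph-p the summits spanned 3551 bp with signals of 220, 155, 200.6, 2327 and 478, so that 1 peak was far above the rest. The chains of 4 lay in Sxl, in CG1677 upstream of unc-119, at CG32767 and rg, and at CG42353 and CG42354.

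Peak density was uneven along X. It was highest in the distal part and fell toward the centromere. Divided into 4 equal parts from the distal end, X held 38.2, 41.6, 29.4 and 19.9 peaks per Mb. Relative to the genome these had ratios of 1.33, 1.45, 1.02 and 0.692. In the replicates' strongest peaks the first was 1.31 ± 0.0361 (SD, n = 3), the second 1.37 ± 0.0420, the third 0.980 ± 0.0925 and the last 0.676 ± 0.0361. The first, second and last lay on one side of 1 in all 3 replicates (two-sided exact sign-flip permutation p = 0.25, n = 3, each). The first 2 together thus held the excess, 56.0 and 76.0 peaks above expectation, while the last stood at -52.0. Genes with 5 or more summits had 54 of their summits in the first, 31 in the second, 5 in the third and 0 in the last.

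A rich distal part was not particular to X. The ratio of the first stretch was 1.33 on 2L, 1.34 on 3L, 1.23 on 2R and 1.01 on 3R. That of the second was 1.21, 1.10, 1.23 and 1.20 in the same order. Other arms also had their fewest or nearly fewest peaks next to the centromere, with 2.37 per Mb on 2R, 6.12 on 3L, 15.7 on 3R and 24.5 on 2L. The second stretch of X, at 41.6, was the densest of all those compared. Per 100 start sites X held 22.9, 24.0, 16.2 and 14.0 peaks in its 4 stretches, the same order as per Mb. Of the full 1 Mb windows, the one from 2 to 3 Mb held 55 peaks and that from 6 to 7 Mb 54, and the replicates had 54, 60 and 51 in the first of these. Denser windows of this size were found on 3L, with up to 64 peaks, and on 3R, with up to 61. The X window from 2 to 3 Mb contains Ugalt, ph-p and Raf.

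**Figure D3:**
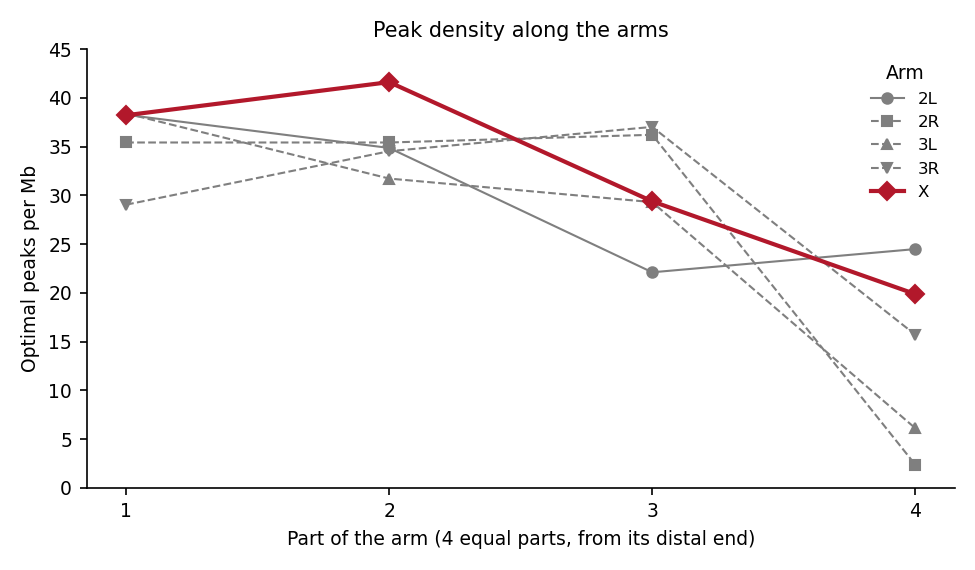
Optimal peaks per Mb in 4 equal stretches of each arm, counted from the distal end; chromosome 4 is not drawn. X (thick line) has 38.2 and 41.6 peaks per Mb in its first 2 stretches and 19.9 in the last, and the last is low on 2R, 3L and 3R as well.

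The longest stretch of X without an optimal summit was 1202 kb, from lncRNA:flam, the flamenco locus that makes piRNAs against transposons, to mir-2491. It held 62 start sites and 34 relaxed pooled peaks. A further 705 kb between fog, a gene for a signal in gastrulation, and the end of the assembled arm had no summit either. The other long stretches, of 332 kb between lncRNA:CR44619 and hep, the kinase upstream of JNK, and of 281 kb between lncRNA:CR32660 and the teneurin gene Ten-a, held 44 and 36 start sites and 33 relaxed peaks each. The relaxed list holds background as well as peaks, and over all of X it had 208 entries per Mb. In the longest stretch it had 28.3 per Mb, in the one at the end of the arm 29.8, and in the others 99.3 and 117, so these stretches had fewer entries in the relaxed list too.

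The location of the summits within genes was compared with that on the autosomes. Summits on X lay in introns more often, and at promoters and between genes less often. A promoter summit is one within 500 bp of any annotated start site. Introns held 282 X summits (37.1%) and 26.7% of autosomal summits, a difference of 10.4 percentage points (6.71 to 14.2). The share was 25 to 28.4% on 2L, 2R, 3L and 3R, so X lay above each of them. In the replicates' strongest peaks the difference was 12.2, 12.6 and 8.88 points, higher on X in 3 of 3 (11.2 ± 2.03, SD, n = 3, two-sided exact sign-flip permutation p = 0.25). It was 7.53 points without the summits in genes of 5 or more.

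Introns take up more of X, 43.3% of its length against 38.6% of the autosomes, which is a smaller gap than that in peaks. Per Mb of intron X held 27.6 peaks and the autosomes 19.3, a ratio of 1.43. At the autosomal intron density X would hold 85.0 fewer intronic peaks. The promoter density was 1.14 times that of the autosomes, and the intergenic density 0.807 times. The intronic summits lay a median of 2338 bp from a start site on X and 2379 bp on the autosomes. Only 41 X summits (5.39%) were over 10 kb from any start site.

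Promoters held 402 X summits (52.9%) and 58.6% of the autosomal ones, a difference of -5.74 points (-9.70 to -1.81). The share was 55.3 to 62.4% on 2L, 2R, 3L and 3R. Arm 3L, at 55.3%, lay within the Wilson interval of X (49.3 to 56.4%), and 2L, at 56.8%, lay just above it. In the replicates the difference between X and the autosomes was -8.69, -4.24 and -3.89 (-5.60 ± 2.68, SD, n = 3, two-sided exact sign-flip permutation p = 0.25). Intergenic DNA held 53 X summits (6.97%) against 12.5%, but 2R and 3R, at 8.38% and 9.0%, were nearer to X than to 2L and 3L, at 16.6% and 16.3%. In 3' UTRs there were 11 X summits (1.45% against 0.421%), among them one in APC7, 635 bp upstream of the start site of pigs (signal 443), and one in CG7872 (408). Coding sequence held a single X summit, in the ubiquitin ligase gene Ubr1. Of the promoter summits, 78.6% lay upstream of the start site on X and 78.8% on the autosomes. The median distance was 113.5 bp and 90 bp.

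**Figure D4:**
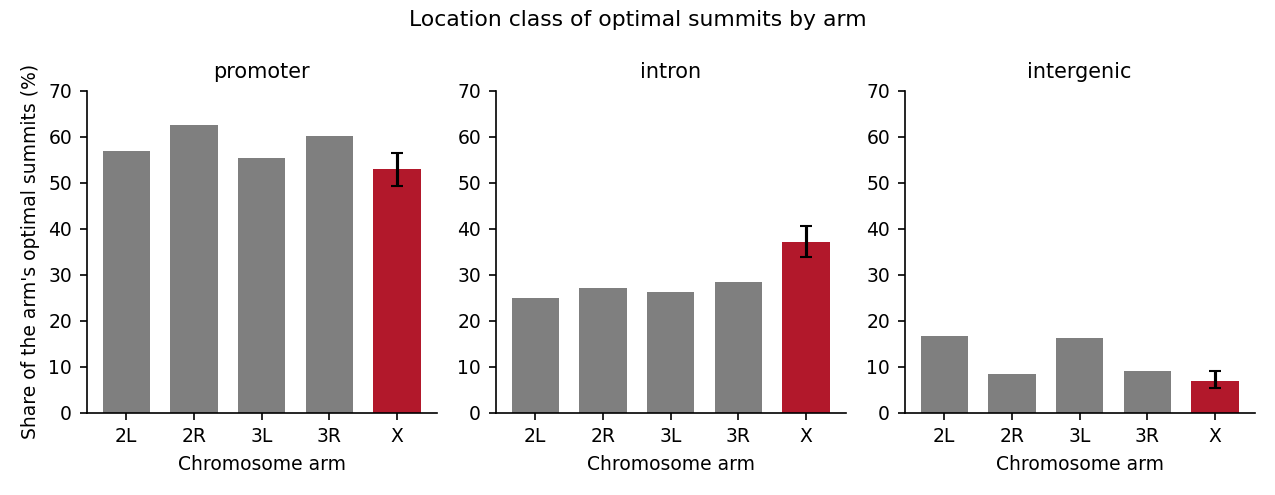
Share of each arm's optimal summits at promoters, in introns and in intergenic DNA; the error bar on X is its 95% Wilson interval, and chromosome 4 is not drawn. The intron share is 37.1% on X and 25 to 28.4% on the other arms.

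The strength of the X peaks was compared with that of the autosomal peaks. No correction was made for the single X of males. As a whole the X peaks were about as strong. Signals ran from 112 to 3576, with quartiles of 138, 178 and 269, and the median was 0.980 times that of the autosomes. In the replicates the ratio of median relative signals was 0.976, 0.998 and 0.975 (0.983 ± 0.0129, SD, n = 3, two-sided exact sign-flip permutation p = 0.25). Within classes the ratio went both ways. Promoter peaks had a median of 176 on X and 189 on the autosomes, a ratio of 0.933, and it was 0.915, 0.941 and 0.944 in the replicates (0.933 ± 0.0159, SD, n = 3). Intronic peaks had 191 and 177, a ratio of 1.08, and in the replicates it was 1.10, 1.09 and 1.00 (1.06 ± 0.0542, SD, n = 3). The exact sign-flip permutation test gave p = 0.25 for both. Arm 2L, at 191, had an intronic median like that of X.

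X peaks were found again in each replicate about as often as other peaks. A replicate summit within 100 bp was found for 97.9%, 96.2% and 95.3% of them in replicates 1, 2 and 3, and in all 3 for 685 peaks (90.1%, against 88.4% on the autosomes). Agreement of the replicates was also what the optimal list was selected on. Across the 685 peaks the signals of replicates 1 and 2 had a Spearman's rho of 0.771, those of 1 and 3 had 0.753, and those of 2 and 3 had 0.715, given as a description because peaks share libraries.

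The strongest X peak lay 44 bp upstream of Ugalt, a gene for a transporter of UDP-galactose, with a signal of 3576. Its relative signals were 20.0, 20.5 and 16.5 in replicates 1, 2 and 3. The peak of 2327 at ph-p, 478 bp upstream of a start site, had 13.3, 13.6 and 10.7. Replicate 3 was the lowest at both. An intronic peak of CG32772 followed at 1806, with 10.2, 9.47 and 9.26. MFS10, named for the major facilitator family of transporters, had a promoter peak of 1470 that lies inside the body of CG15717, and the bZIP factor gene Atf3 one of 1363. The long noncoding RNA gene lncRNA:CR44619 had peaks on both sides of its start site, at 1408 and 1228, and adjoins one of the long stretches without summits. CG3726, TRAM, LPCAT, lncRNA:CR42794, NFAT and CG3009 had peaks with signals from 967 to 1333. Of the 15 strongest X peaks 8 were at promoters, 6 in introns and 1 intergenic, and each was at least 4.44 times the median of every replicate.

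**Figure D5:**
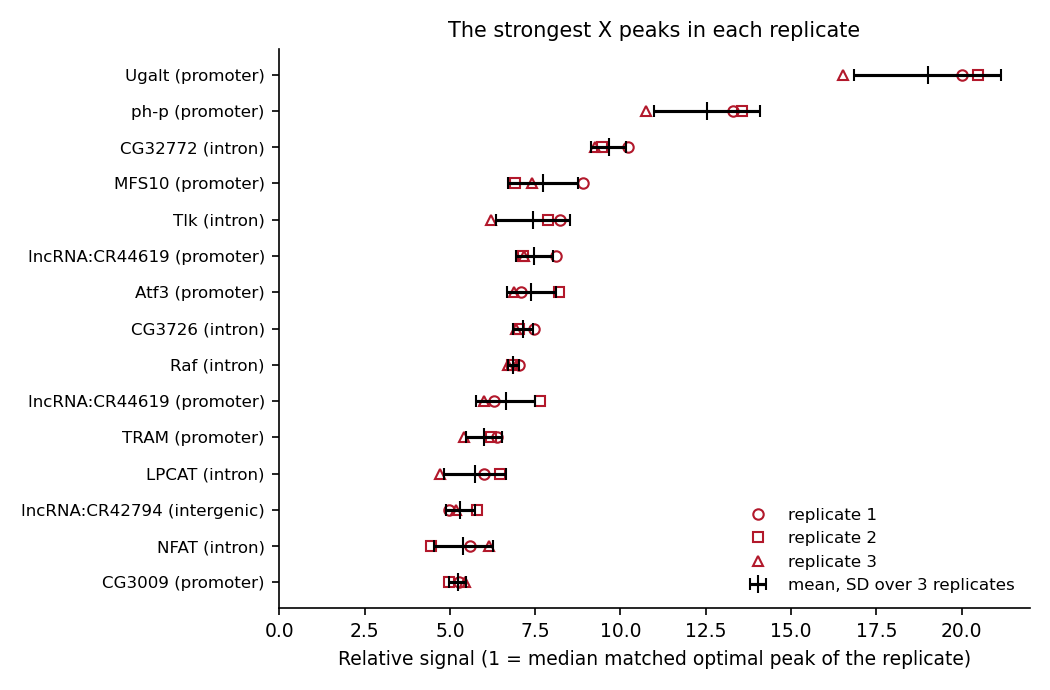
Relative signal of the 15 strongest X peaks in each replicate (open symbols) with mean and SD over the 3 replicates, where 1 is the median matched optimal peak of that replicate. Labels give the nearest gene and the location class; Ugalt and ph-p stand apart, at means of 19.0 and 12.5.

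The genes with an X peak were then described by their roles. Bound here means that at least 1 optimal summit was no farther than 1 kb from a start site of the gene, so peaks are assigned by position. On X 526 of 2196 protein-coding genes (24.0%) were bound, level with 3R at 24.0% and above 2L, 2R and 3L at 20.8 to 22.1%. The share was 22.1% on the autosomes and 22.4% over all arms. X differed from the autosomes by 1.83 points (-0.0657 to 3.81). In the replicates the difference was 0.944, 0.810 and -0.369 (0.462 ± 0.722, SD, n = 3, two-sided exact sign-flip permutation p = 0.5), so it did not exceed their spread. The lists below are short, and their shares are descriptions to be read beside the 24.0% of all X genes and the median signal of 178.

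Most of the listed genes of chromatin and of ribosomal proteins were bound. Of 12 chromatin and variegation genes 9 were bound (75%, 46.8 to 91.1%), with a median of 342 over their strongest peaks. Besides ph-p and ph-d they were Top1, which encodes topoisomerase I (473), the Brahma complex gene Bap60 (360), the BET protein gene fs(1)h (343), the histone locus body gene mxc (274), the acetyltransferase gene nej (255), e(y)2, a SAGA subunit gene (118), and HP1b, for a relative of heterochromatin protein 1 (118). For Bap60, fs(1)h, mxc, nej and e(y)2 another gene's start site was nearer to the peak, and fs(1)h shared its peak with the integrin gene mys. Tlk missed the limit, with its nearest summit 1001 bp away. Of 14 cytoplasmic ribosomal protein genes 11 were bound (78.6%, 52.4 to 92.4%), all with promoter peaks of modest signal, from 118 at sta to 272 at RpL22. RpS14b, RpS19a and RpS6 were not, and RpS14a and RpS14b are tandem copies.

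The signalling lists held 3 to 6 genes each. In the Wnt pathway the kinase genes sgg, for the fly GSK3 (700), and CkIalpha (234) and the beta-catenin gene arm (120) were bound, and dsh and the receptor gene fz4 were not. The sgg peak had relative signals of 3.89, 3.79 and 3.40, above the median in every replicate, while that of arm had 0.316, 0.648 and 0.857, all below it. In the Ras and receptor tyrosine kinase list 3 of 6 were bound, which were Raf (648), the SHP2 phosphatase gene csw (164) and the RasGAP gene raskol (114), and the receptor gene sev, the phosphatase gene Ptp10D and the MEK gene Dsor1 were not. Of the 4 genes in the Notch list as drawn up 3 were bound, which were N, dx and fs(1)h, and sno was not. Of these, fs(1)h is described above with the chromatin genes, and its peak lay nearest to mys. The Notch receptor gene N (169) was bound 144 bp from a start site. The peak assigned to dx, a ubiquitin ligase of that pathway, lay 22 bp from RpL7A and was shared with it. None of the 3 JAK/STAT genes hop, upd2 and upd3 was bound. Nor was any of the 4 genes bi, shf, sog and Smox, which allows a share of up to 75%. They were drawn up as a Dpp and Activin list, but shf belongs to Hedgehog signalling.

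Of 11 genes for adhesion, junctions and myoblast fusion 5 were bound. They were sdk (515), dlg1 (354), the integrin genes mys (343) and if (155), and the innexin gene ogre (212). kirre was not, because its nearest summit lay 2314 bp from a start site, nor was its relative rst. Of 11 genes of nervous system function 5 were bound, led by dnc (846) and elav, for a neuronal RNA-binding protein (638), ahead of norpA (161), rut (128) and shi (112). The peak of elav lay nearest to lncRNA:enrr. Channel genes such as para, Sh and cac were not. In the cell cycle list 6 of 14 were bound, with signals from 121 at mus81 to 189 at mei-41, so all were near or below the X median. Of the classic visible markers car (222), rb (199) and sn (126) were bound, 3 of 13, and w, y, v and m were not.

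None of the 4 genes of the achaete-scute complex had a summit within 1 kb, and none of the segmentation genes btd, gt, run and oc, which allows up to 75% for each list. For sc the nearest summit was 91709 bp away, for run 35491 bp and for gt 39795 bp. Among 22 transcription factor genes, a list that shares some of these, 2 were bound (9.09%, 2.53 to 27.8%), an interval that includes the 24.0% of all X genes. They were usp, the partner of the ecdysone receptor (207), and sd, the TEAD factor of the Hippo pathway (118). Hr4, Myc, ct, Lim1 and br had summits inside the gene but not within 1 kb of a start site. The transcription factor list left out Atf3, Mnt, brk, NFAT and CHES-1-like, which were bound at distances of 210, 267, 849, 745 and 161 bp. Its low share thus describes the 22 genes chosen, not X transcription factor genes in general. Of the 3 forkhead genes on X, CHES-1-like was bound and fd19B and fd3F were not.

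Of 4 genes listed as X-signal elements or Sxl 1 was bound, and of 3 listed for dosage compensation 1, shares of 25% and 33.3%. Sxl, the switch of sex determination, had 3 summits within 1 kb of its start sites. The strongest had a signal of 277 and relative signals of 1.56, 1.52 and 0.556, so replicate 3 was below its median and the others above. Among the X-signal genes sisA, sc and run were not bound, and the listed symbol os had no match. lncRNA:roX1 had a promoter peak of 146, with relative signals of 0.931, 0.484 and 0.892, below the median in every replicate. lncRNA:roX2 had its nearest summit 1404 bp away and the acetyltransferase gene mof 2795 bp away, and neither was bound.

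Short consensus words were searched for, on either strand, within 50 bases of each X summit and in equal windows 500 bp to each side. The forkhead word was less common at X peaks than at autosomal peaks, and hardly more common at X summits than beside them. TAAACA lay at 85 X peaks (11.2%) and at 14.0% of autosomal peaks, a difference of -2.82 points (-5.23 to -0.110), and the share was 13.1 to 15.2% on the autosomal arms. Beside the X summits it was 9.41%, and 8.67% of all X windows of this length held it. On the autosomes 8.91% of the windows beside summits and 9.36% of all windows held it. The longer form GTAAACA, which contains it, lay at 2.11% of X peaks and 3.92% of autosomal peaks. GACGC, a word of FOXN-type forkhead factors in vertebrates, lay at 7.11% of X peaks, fewer than the 12.3% of windows beside them. TATCGATA, the DRE, lay at 3.95% of X peaks against 0.263% beside them and 0.349% of all X windows, and the autosomal peaks had 2.88%. CGATA, which the DRE contains, lay at 21.2% against 12.3% beside. The X peaks with the DRE had a median signal of 153, below the 181 of those without.

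AAAAAAAA, a run of A, was more common on X, at 8.95% of peaks against 5.15%, a difference of 3.79 points (1.78 to 6.15). It was so beside the summits too, with 9.21% and 4.83%, and in all windows, with 8.31% and 4.83%. For the GAGA factor word GAGAG and its repeat GAGAGAGA, the CA repeat CACACACA, the M1BP word GGTCACAC, the Zelda word CAGGTA and the E-box CACGTG the interval of the difference between X and autosomal peaks included 0. The same held for GACGC, the DRE and CGATA. GC content at the summits was 37.7% ± 9.11 (SD over 760 peaks) on X and 37.8% on the autosomes. A match shows only that the letters occur in the window, and no match says nothing about the factor.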

How the data were processed

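The authors deposited peak lists in 2 builds, dm6 and dm3; dm6 was used, and dm3 only for the share of peaks on X. Per the deposited readme files, each replicate and the pool had a relaxed list for the irreproducible discovery rate procedure, which then gave the optimal list. Signal is the value the authors deposited for a peak. The deposited −log10 q values were not used. Not given in the sources used here are the aligner, the peak caller, the threshold and the depth, and the control alignment that the readme files name was not used here. How repeats and multiply mapped reads were treated, which can set counts in repeat-rich stretches, is not given either.

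Summits were placed on the RefSeq sequence of dm6 and the Ensembl release 115 annotation of BDGP6.54 without transposable elements (18164 genes, 13945 protein-coding, 23581 start sites). A summit took the first of promoter, 5' UTR, coding sequence, 3' UTR, other exon, intron and intergenic. Where gene bodies overlapped, the gene with most summits took them. The summit of 1 X peak fell beyond its interval; the peak was used like the others. Replicates were compared through their strongest 3845 peaks, or through summits matched within 100 bp, taking the strongest. Intervals are 95% Wilson or Newcombe intervals. Differences over replicates were tested with a two-sided exact sign-flip permutation test, which with 3 replicates cannot go below p = 0.25. No p was adjusted, since none could pass a threshold of 0.05.

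Named genes are those at the 15 strongest X peaks, X genes with 5 or more summits, members of 17 lists of genes and the neighbours of the 3 longest stretches without a summit. The genes at 3' UTR and coding summits, at chains, at the ends of the arm, nested in CG1677 and kirre, and at the sequences of Hmt4-20 and snf were named after their values were seen. The Notch list as drawn up also held fs(1)h, which is described with the chromatin genes. One symbol, os, of the JAK/STAT and X-signal lists, had no match. The members and lists were chosen with earlier results of these data known. Functions were tested on simulated data. Python 3.11.15, numpy 2.4.6, pandas 2.3.3 and matplotlib 3.10.9 were used.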

Additional observations from a re-analysis of the deposited data

How the results depend on the processing

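The X peak ratio of 1.12 fell below 1 in longer lists, with 0.996 for the strongest 10000 pooled peaks and 0.936 for the whole relaxed pooled list, and in the replicates counted per gene body, as given above. It was 1.07 in the strongest 961 optimal peaks. When each replicate was left out in turn, it was 1.11 to 1.15 in the optimal peaks matched in the strongest lists of both others. Set against other shares than length it was 1.19 for start sites, 1.26 for protein-coding genes and 1.07 for bases in gene bodies. With clusters collapsed it was 1.03 per gene body, 1.04 per nearest start-site gene, and 1.09, 1.07 and 1.07 for chains at 2, 5 and 10 kb; without genes of 5 or more summits it was 1.08, and without the 5 X genes with most summits 1.06. After the data were seen, 3 alternatives were added for it: 1.08 with the length of those 5 genes removed too, 1.06 without the distal 6 Mb of X and 1.14 against bases not masked as repeats. The ratio per gene body, 1.03, was 1.11, 1.09, 1.07 and 1.07 under chains at 1, 2, 5 and 10 kb, and 0.998 (without replicate 2) to 1.04 (without replicate 1) with a replicate left out.

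The promoter difference was -9.29 points at 250 bp, -10.5 in the strongest 1922 peaks and -9.52 to -7.98 with a replicate left out. It was -5.67 at 1 kb and, under alternatives added later, -4.63 without the distal 6 Mb and -3.42 without summits in genes of 5 or more. The intron difference, whose alternatives were all added later, was 14.4 in the strongest 1922, 12.3 to 14.2 with a replicate left out, 7.53 without summits in genes of 5 or more and 8.06 without the distal 6 Mb. The ratio of median signals was 0.933 at promoters and 1.05 outside them. With a replicate left out, the ratio of relative signals was 0.975 to 0.987 and the spacing difference 3.09 to 3.36; at 1 kb the latter was 1.05. The difference in bound genes was -0.273 in the strongest 1922 peaks and 0.200 to 0.384 with a replicate left out. Among the words, GACGC (-0.347) and CACACACA (-0.252) turned negative and GGTCACAC (0.145) positive within 25 bases of the summit, and CACGTG turned negative (-0.227) within 100 bases. The X share in the dm3 list was 19.7%. The cause of these changes was not tested. The sets without a replicate held 2411 to 2655 peaks. They are parts of the optimal list, which was made with all 3 replicates. The replicate left out thus still shaped them, and they do not show what a list made without it would hold. No paired analysis was possible because there was 1 group. Peaks are not replicates, the depth is unknown, and 3 replicates cannot give a p under 0.25.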

Other observations

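The word AATAGT was looked at after its values had been seen. It lay at 92 X peaks (12.1%, 9.97 to 14.6%), against 3.36% of the windows beside them and 5.28% of all X windows of this length. At autosomal peaks the share was 8.10%, and it was 6.07% on 2R, 8.49% on 3L, 8.57% on 3R and 8.95% on 2L. The difference between X and the autosomes was 4.0 points (1.64 to 6.67). At intronic peaks the shares were 14.5% on X and 9.11% on the autosomes, and at promoter peaks 9.95% and 7.30%. Because the word was chosen on these peaks, the values are a description.

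The summits in X genes with 5 or more had a median signal of 245, and those in autosomal genes of that kind 190. The median length of these genes was 48.4 kb on X and 62.1 kb on the autosomes. Introns held 78.9% of the first and 76.7% of the second.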
